A study of Mus musculus with 4 samples.

Results

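The proteasome is encoded here by the genes whose symbols run from Psma to Psmg with a number, taken without the names marked as pseudogenes. These were 49 of the 24190 gene symbols listed for 4 messenger RNA libraries, and 208 of the 58853 transcripts. Of the 49 genes, 48 encode subunits, activators, an inhibitor or assembly factors. They were 8 alpha ring genes, 10 beta ring genes, 6 ATPase genes, 14 other genes of the base and lid, and 10 genes of activators, an inhibitor and chaperones. The remaining name, Psmc3ip, encodes a meiotic recombination factor and is given apart. Psmb8 was not analysed here.

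Every population came from ES-E14TG2a (E14), a male embryonic stem cell line of the mouse that is long established, grown without serum in N2B27-based medium with inhibitors of MEK and GSK3β. A stably integrated promoter of Zscan4c drove GFP in one clonal reporter line, called the GFP line here. In the other clone, called the fusion line, the same promoter drove a GFP-Zscan4c fusion. Fluorescence sorting separated each line into GFP-negative cells, labelled pluripotent, and GFP-positive cells, labelled 2C-like after the mouse embryo at its first cleavage stage. They are called negative and positive libraries below. Each of the 4 populations was 1 library, so line, clone and construct cannot be told apart and a difference between 2 libraries has no replicate check. In these bulk libraries, fewer cells that express a gene and less RNA per cell cannot be told apart.

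The proteasome degrades proteins that carry ubiquitin chains. Its core is a barrel of alpha rings, which form the gate, and beta rings, which hold the proteolytic sites. A regulatory particle caps the barrel: its base unfolds substrates with a ring of ATPases, and its lid removes ubiquitin. Other activators can bind in place of that particle, immune cells exchange the catalytic beta subunits, and dedicated chaperones build the complex. The transcription factor Nfe2l1 is known to raise proteasome genes together when proteasome activity falls short.

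Values are TPM, each transcript's length-scaled share of its library, summed over the transcripts of a gene. Where 4 values follow each other, they stand for the negative and positive library of the GFP line, then the negative and positive library of the fusion line. Ratios are log2 values of (TPM + 1), which understates the change of low genes. A gene was counted as 2-fold or more apart when its log2 ratio was at least 1 in size and it reached 5 TPM in either library of the pair. TPM keep no read numbers, so sequencing depth is unknown.

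Zscan4c itself was at 9.24, 497, 4.11 and 366 TPM. Cells were sorted on GFP driven by the promoter of that gene, so this is no independent check of the labels. The fusion construct also carries Zscan4c, and its part in the 366 TPM was not determined. All 10 genes of a 2C-like marker list, Zscan4c among them, were 2-fold or more higher in the positive library of both lines. The 6 pluripotency genes summed to between 2642 and 3359 TPM in every library. Only Klf4 among them was 2-fold or more apart within a line, at 187, 69.5, 40.1 and 118 TPM. It was lower in positive cells of the GFP line and higher in those of the fusion line. Summed fibroblast markers were at 0, 13.4, 0.114 and 7.42 TPM. They came mostly from Thy1 (0, 11.9, 0 and 7.27 TPM), which was 2-fold or more higher in positive cells of both lines. Primitive endoderm markers summed to 0, 2.22, 0.441 and 3.07 TPM, with Gata4 at 0, 1.64, 0 and 2.13 TPM. Trophectoderm markers summed to between 29.1 and 39.4 TPM, mostly from Tfap2c (39.4, 24.9, 34.0 and 23.3 TPM). Krt8 was at 0, 8.51, 0 and 0 TPM, and Krt18 at 0, 5.34, 5.42 and 5.74 TPM. Of 3 trophectoderm genes at 5 TPM in the GFP line, Krt8 and Krt18 were 2-fold or more higher in positive cells, against 33.2% of all genes. Leukocyte markers summed to between 27.8 and 85.6 TPM, almost all from Laptm5, with Cd74 at 4.70 TPM in the GFP line's positive library and listed at 0 in the others. Gata6, Pdgfra, Dab2, Cdx2, Col3a1 and Ptprc were not analysed here. The part of such cells in the results was not tested. One library, the GFP line's negative one, differed from the rest. There 48.4% of symbols were listed at 0, against 11.6% to 19.5% in the others, and an exact 0 in it is therefore given as a listing and not as absence.

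One subunit, the ubiquitin receptor Psmd4 (also called Rpn10), was listed with different leading coding transcripts in different libraries. Its distinguishing stretches are printed first because they show what the libraries exchanged. They are read 5′ to 3′ from the GENCODE M21 transcripts (build GRCm38, minus strand). Capitals mark coding bases present in the named transcript and absent from the other one, and lower case marks up to 21 shared bases on either side.
Psmd4-202 end: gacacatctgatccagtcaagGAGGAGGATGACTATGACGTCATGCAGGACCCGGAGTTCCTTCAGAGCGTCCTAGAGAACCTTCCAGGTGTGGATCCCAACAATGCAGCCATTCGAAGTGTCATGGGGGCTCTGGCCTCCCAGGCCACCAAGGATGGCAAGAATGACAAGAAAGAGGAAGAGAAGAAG
Psmd4-203 end: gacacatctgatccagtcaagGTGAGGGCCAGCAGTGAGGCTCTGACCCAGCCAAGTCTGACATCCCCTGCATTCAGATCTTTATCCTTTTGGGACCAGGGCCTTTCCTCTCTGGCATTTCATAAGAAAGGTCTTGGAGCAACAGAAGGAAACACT
Psmd4-203 inner stretch: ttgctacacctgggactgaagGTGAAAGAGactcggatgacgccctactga
The last 168 coding bases of Psmd4-202 lie at chr3:95032817-95032984. Psmd4-203 replaces them with 135 bases at chr3:95033347-95033481 and carries 9 further bases at chr3:95033909-95033917. The coding sequences are 1128 and 1104 bases long without the stop codon.

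The promoters of several members share a short motif. The windows printed are those that hold it among subunit genes 2-fold or more apart between libraries. A window of Psmc3ip, which is not a subunit, also held it and is not printed. RefSeq promoter windows (GRCm38.p6), from 250 bases before to 50 bases after a start, were found for 41 of the 49 genes, with 44 windows in all. Each line gives 30 bases 5′ to 3′ on the gene's strand, with the ETS core CCGGAAG or its reverse complement in capitals.
Psmc2 upstream start: accagtgagcaCTTCCGGgatggggctcgc
Psmc2 downstream start: gcgcggagctaCTTCCGGtggggaagagaa
Psmd13: cgcccgcggtgCCGGAAGtgagcgagcact
Psme4: gtggccccgccCCGGAAGtgacttgaggcc
Psmg1: ctcgcggcggaCCGGAAGctcttaggttct
Psmg3: acggacaggaaCCGGAAGttctcgccggga
The windows lie at chr5:21785180-21785209 and chr5:21786712-21786741 (both plus strand), chr7:140882377-140882406 (plus), chr11:30771711-30771740 (plus), chr16:95991011-95991040 (minus) and chr5:139826872-139826901 (minus). The first motif of Psmc2 starts 84 bases before its upstream start site.

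CCGGAAG, searched on both strands, stood in 16 of the 44 proteasome windows (36.4%). It stood in 8.86% of all 32851 promoter windows, and in 20.2% of the 5406 windows of genes at 5 TPM or more in all 4 libraries. The proteasome windows were not filtered by level and include that of Psmc3ip, so these sets are unlike. Among subunit genes with a window, 5 of the 8 that were 2-fold or more apart in any comparison held it, as did 9 of the other 32. The share among all genes 2-fold or more apart was not computed, and a link of the motif to these differences was not tested. The antioxidant response element core TGACNNNGC, to which Nfe2l1 and Nfe2l2 are known to bind, stood in 6 windows (13.6%), close to the 12.4% of all windows and the 14.3% of windows of expressed genes. Its holders were Psmb5, Psmb6, Psmc6, Psmd9, Psmd12 and Psme4. A GC box (GGGCGG) was in 54.5% of proteasome windows against 35.7% of all and 67.6% of expressed windows, a CCAAT box in 34.1% against 37.4% and 39.5%, a TATAAA box in 6.82% against 13.6% and 6.29%, and CGCATGCG in 4.55% against 1.87% and 4.81%. These are matches of letters and not sites shown to be bound.

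Most proteasome genes were at similar levels in GFP-negative and GFP-positive cells. All 48 genes together summed to 4226 TPM and 4660 TPM in the GFP line and to 3977 TPM and 4460 TPM in the fusion line, or 0.597% to 0.682% of the listed TPM. The GFP-positive sum was thus 1.10 times the GFP-negative sum in the GFP line and 1.12 times in the fusion line. The members' median log2 ratio was 0.03 in the GFP line, against 0.19 over all genes at 5 TPM, and 0.18 in the fusion line, against 0.14 over all genes. In the GFP line that order turned with quantile normalization (0.10 against -0.13) and among genes above 0 in both libraries (0.02 against -0.01). One ATPase gene, Psmc2, departed from the others in both lines.

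In the GFP line, 9 of 45 subunit genes at 5 TPM were 2-fold or more apart, which is 20% of them, while 40.7% of all genes tested were. Of the 9, Psma8, Psmc2, Psmd1, Psmd10, Psmd13, Psme4, Psmg1 and Psmg3 were higher in GFP-positive cells (8 of 45, against 33.2% of all genes in that direction), and Psme2 was lower (7.48% of all genes). With quantile normalization the split was 7 higher and 2 lower. The same rule found 1 of 44 in the fusion line, Psmc2, against 11.4% of all genes. Only 6 of the 9 genes were above 0 in both libraries of the GFP line.

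More members were apart between the negative libraries than between the positive ones. Between the positive libraries of both lines, 0 of 45 members were 2-fold or more apart, against 9.76% of all genes. Between the negative libraries, 8 of 44 were, against 38.6% of all genes: the same names as in the GFP line without Psmc2. Of these, 7 were higher in the fusion line, where 30.1% of all genes tested were higher, and Psme2 was lower. With quantile normalization that split was 6 and 2. These comparisons share libraries with the ones within lines, so each only gives its own values. Of genes that reached 5 TPM in each remaining library, 17.7% had a 0 in the GFP line's negative library, as did 3 of 44 members (Psma8, Psmd10 and Psmg1). For each remaining library the share was 0.0147% to 0.0440% of all genes and 0 of 39 members.

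**Figure D1:**
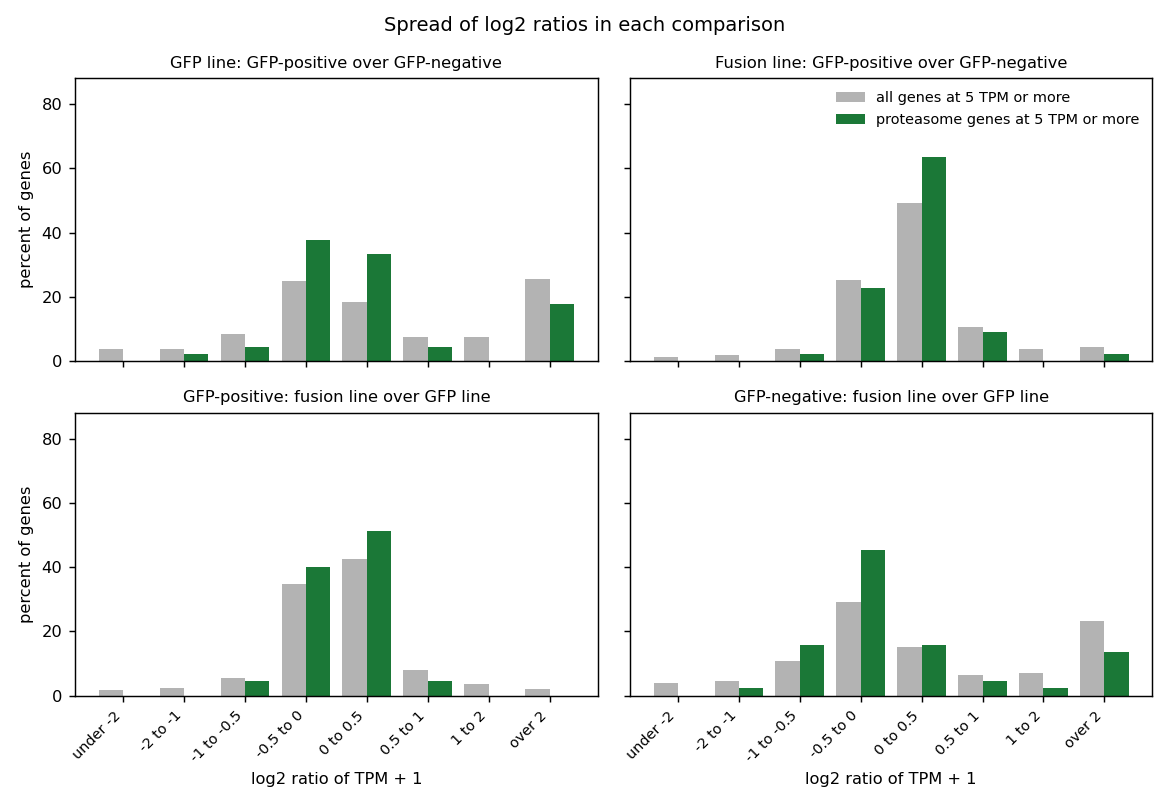
Histogram of log2 ratios of TPM + 1 in the 4 comparisons, as percent of genes in each bin, for all genes (grey) and proteasome genes (green) at 5 TPM or more in either library. Proteasome genes gather near 0 in every panel, and in the GFP line 8 of 45 sit above 2 beside 25.6% of all genes.

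The alpha ring genes, which form the outer rings and the gate of the core, summed to 745, 743, 590 and 707 TPM. Psma2 was at 165, 170.1, 137 and 167 TPM. Psma7 was at 187, 169.8, 113 and 124 TPM, higher in both libraries of the GFP line than in both of the fusion line. Those were the alpha genes with the highest mean level, and neither reached 2-fold in any comparison.

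Within each line the other constitutive alpha genes stayed under 2-fold. Psma4 was at 78.4, 108, 66.5 and 111 TPM, so that both positive libraries lay above both negative ones. Its log2 ratio was 0.46 (GFP line) and 0.73 (fusion line). Psma1 went opposite ways in the lines, at 84.9, 51.4, 44.8 and 53.4 TPM, where the GFP line's negative library was the highest of the 4 and that of the fusion line the lowest. Psma3, Psma5 and Psma6 had log2 ratios between -0.15 and 0.47.

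Psma8, the alpha subunit known from the testis, was low. Its listed values were 0, 6.02, 5.05 and 6.86 TPM, the 0 in the GFP line's negative library. Its 3 values above 0 were close together, and the log2 ratio in the fusion line was 0.38.

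The beta ring genes were the most abundant class, summing to 1430.0, 1364, 1269 and 1334 TPM. Psmb6, the caspase-like catalytic subunit, was the highest of all members, at 288, 310.2, 303 and 287 TPM. Psmb4, which is not catalytic, came next in the class, at 235, 211, 200.5 and 221 TPM. The 4 libraries of both genes overlapped between GFP-negative and GFP-positive cells.

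The other catalytic subunits were equally even. Psmb5, the chymotrypsin-like subunit and the main target of proteasome inhibitor drugs, was at 152, 147, 148 and 165 TPM. Psmb7, the trypsin-like subunit, was at 169, 167, 144 and 170.1 TPM. No log2 ratio of Psmb1 to Psmb7 exceeded 0.24 in size within a line, and the smallest was -0.21.

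The inducible catalytic subunits of the immunoproteasome were at or near 0. Psmb9 was at 0, 0.170, 0.839 and 0 TPM. Psmb10 was listed at 2.71 TPM in the GFP line's positive library and at 0 in the other 3. Psmb11, the catalytic subunit known from thymic epithelium, did not pass 0.127 TPM. None of the 3 reached 5 TPM in any library, so none entered the counts, and Psmb9 shares 212 exon bases with Tap1 on the opposite strand.

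Genes of antigen presentation around the immunoproteasome were low as well. Of a list of 10, 7 had values, and they summed to 38.7, 62.2, 57.6 and 52.9 TPM. Of the 6 genes at 5 TPM in the GFP line, B2m was 2-fold or more higher in positive cells, against 33.2% of all genes. Of 5 in the fusion line, Irf1 was lower, against 3.14% of all genes. B2m, the light chain of class I molecules, was at 0, 7.18, 6.63 and 7.55 TPM. Tap1, a peptide transporter subunit, was at 0, 1.26, 1.41 and 3.05 TPM. Both were listed at 0 in the same library in which Psma8, Psmd10 and Psmg1 were.

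**Figure D2:**
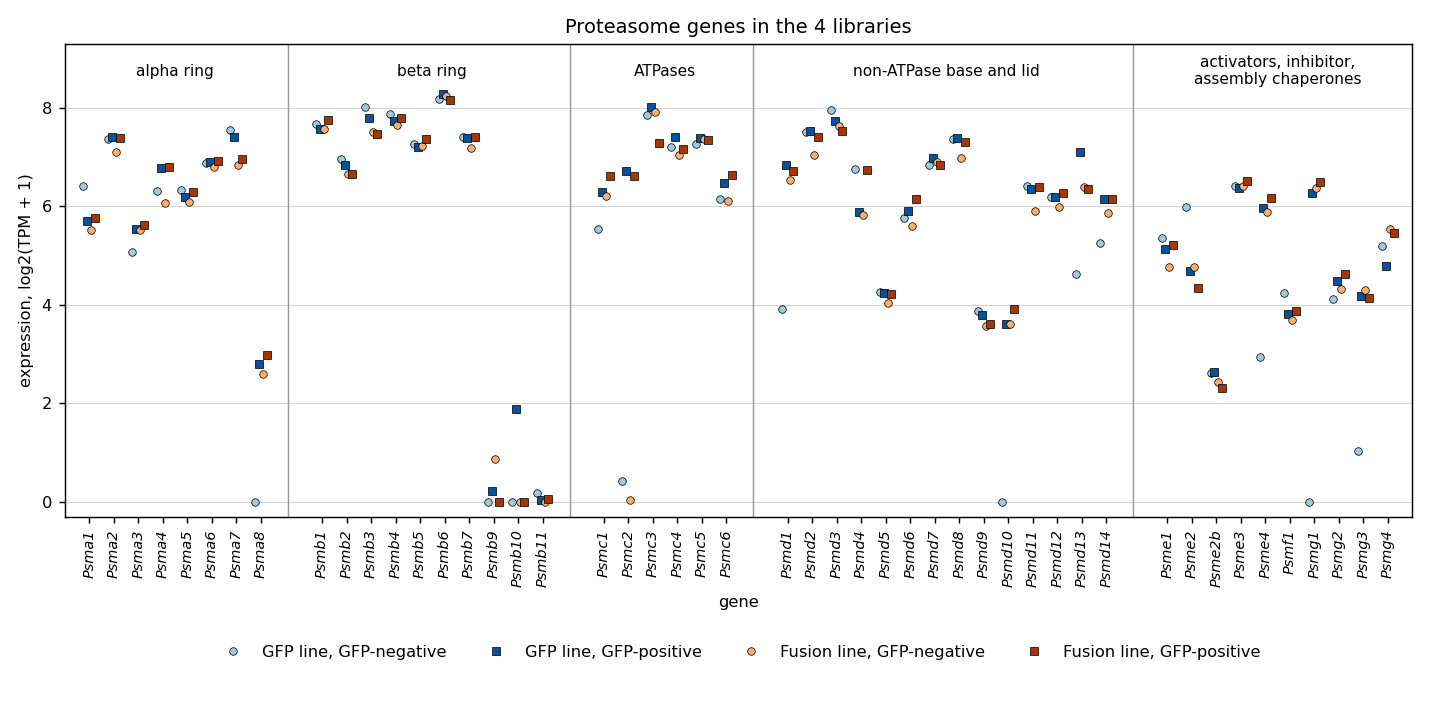
Expression of 48 proteasome genes, as log2(TPM + 1), grouped by their place in the complex; each point is 1 library (circles GFP-negative, squares GFP-positive). Points overlap for most genes, Psmc2 has both circles near 0 and both squares above 6, and several pale blue circles (GFP line, GFP-negative) lie far below the other 3 points.

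The ATPase ring held the gene with the widest difference. Psmc2 (ENSMUSG00000028932, chr5:21785283-21803787, plus strand), also called Rpt1, is 1 of the 6 ATPases of the base. It was at 0.348 TPM in the negative and 105 TPM in the positive cells of the GFP line, and at 0.0310 and 96.6 TPM in the fusion line. Both negative libraries were near 0, and both positive libraries were close to the level of Psmc1 and Psmc6, the lowest of the other ATPases there. Its log2 ratio was 6.29 (GFP line) and 6.57 (fusion line).

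Nearly all of the Psmc2 signal came from 1 coding transcript. Psmc2-201, 1785 bases long, had a 0 in both negative libraries and held 99.9% of the gene's TPM in both positive ones. The small values in negative cells came from Psmc2-202, a retained-intron transcript of 3466 bases. All 6 ATPases are known to be needed for the ring, and the listed 0 is a value of the deposited tables, not a measurement of the protein.

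The pattern of Psmc2 was rare in the tables. With at most 1 TPM in each negative library and at least 50 TPM in each positive one, limits chosen after its values were seen, 14 of 24190 genes qualified, and 0 genes showed the reverse. Zscan4f was among them at 0.174, 170, 0.0470 and 369 TPM, as were Tmem92 and 10 predicted genes with Gm names. The ribosomal protein gene Rps3a1 was the other one with a housekeeping role, at 0, 591, 0 and 499.9 TPM. Dnajc2, which starts next to Psmc2 and is read the other way, did not follow it in the fusion line: it was at 11.2, 52.3, 41.8 and 53.8 TPM. Pmpcb, the next gene examined, was at 64.3, 54.9, 41.9 and 50.2 TPM.

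The other 5 ATPases differed by less than 2-fold. Psmc3 had the highest mean of the class, at 232, 260.4, 239.6 and 155 TPM, with the fusion line's positive library below the rest. Psmc5 followed at 153, 167, 164 and 162 TPM. Psmc1 was at 45.8, 77.3, 72.8 and 97.0 TPM, and Psmc6 at 69.9, 88.5, 68.2 and 99.0 TPM, each higher in the positive library of its line. Their log2 ratios were 0.74 and 0.41 for Psmc1 and 0.34 and 0.53 for Psmc6. Psmc4 lay between 131 and 169 TPM.

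The summed ATPase level was 647, 867, 675 and 753 TPM, 1.34 times as high in the GFP line's positive cells as in its negative ones and 1.12 times in the fusion line. Psmc2 itself made up 105 and 96.6 TPM of the positive sums. The median log2 ratio over the 6 ATPases was 0.27 in both lines.

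**Figure D3:**
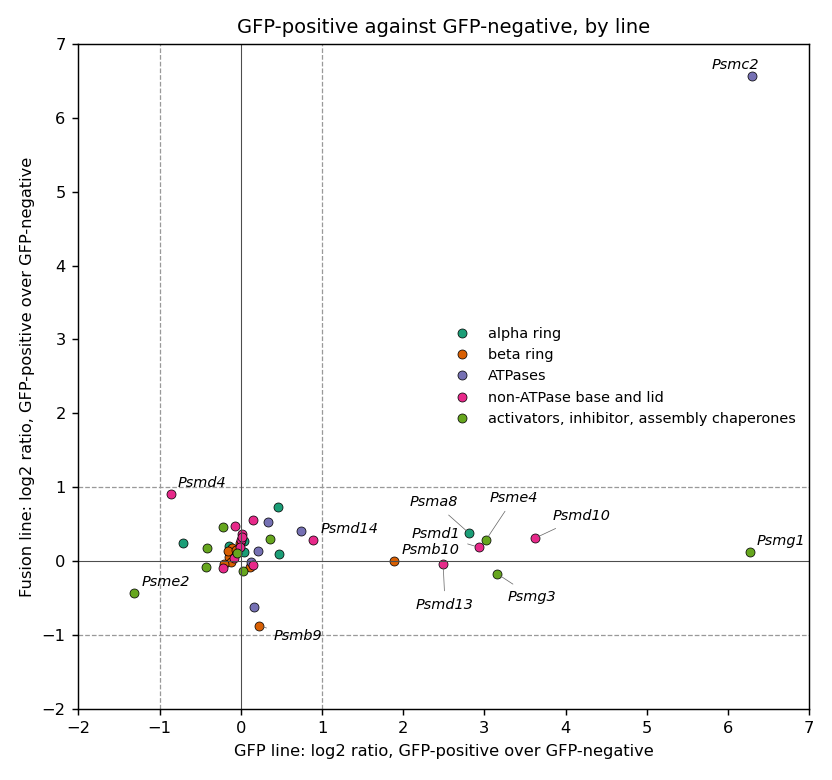
Log2 ratio of GFP-positive over GFP-negative cells in the GFP line (x axis) and the fusion line (y axis), 1 point per proteasome gene, coloured by class; dashed lines mark 2-fold. Psmc2 alone lies beyond 2-fold on both axes (6.29 and 6.57), while 7 other genes at 5 TPM or more lie to the right on the x axis only and Psme2 to the left.

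In the base and lid, the scaffold and ubiquitin-handling subunits summed to 1134, 1323, 1068 and 1259 TPM. The lid subunit Psmd3 was the highest of the class, at 249, 213, 198 and 185 TPM, and the base scaffold Psmd2 followed at 182, 183, 131 and 169 TPM. Neither reached 2-fold. The median log2 ratio of the 14 genes was 0.02 (GFP line) and 0.29 (fusion line). In the fusion line 11 of 14 were higher in positive cells, as were 67.8% of all genes at 5 TPM. Psmd9 leaves that count with median-ratio scaling, and Psmd5 and Psmd9 leave it with quantile normalization.

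Psmd1, the other large scaffold of the base, was at 14.0 TPM in the GFP line's negative library and at 113 TPM in its positive one. The fusion line had 92.1 and 105 TPM. The log2 ratio was 2.93 (GFP line) and 0.19 (fusion line), so 1 library was low and 3 were alike. Psmd13, a lid subunit, had the same low library at 23.6 TPM, against 138, 82.9 and 80.7 TPM in the others. Its log2 ratio was 2.49 (GFP line) and -0.04 (fusion line). Psmd13 shares 342 exon bases with Sirt3 on the opposite strand, and Sirt3 was at 0, 26.2, 38.7 and 30.7 TPM. Without strand, reads of the pair cannot be told apart.

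Psmd14, the deubiquitinase of the lid, was just inside the 2-fold limit in the GFP line. It was at 37.2, 69.8, 57.1 and 69.9 TPM, with a log2 ratio of 0.89 in the GFP line and 0.29 in the fusion line. Again the GFP line's negative library was the lowest. The lid subunits Psmd6, Psmd7, Psmd8, Psmd11 and Psmd12 had log2 ratios between -0.07 and 0.55.

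The base is put together with chaperones that leave the finished particle. Psmd10 (gankyrin) had a 0 in the GFP line's negative library, against 11.3, 11.3 and 14.2 TPM elsewhere. Psmd5 was at 18.1, 17.9, 15.4 and 17.7 TPM, and Psmd9 at 13.8, 12.9, 10.9 and 11.3 TPM. These 2 showed no library apart, and the 3 base chaperones were the lowest genes of their class in the GFP-positive libraries.

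Psmd4 had ratios of opposite sign in the lines. It was at 107 and 58.4 TPM in the GFP line's negative and positive library, and at 56.1 and 106 TPM in the fusion line. The log2 ratio was -0.86 (GFP line) and 0.90 (fusion line), and the levels formed a high pair and a low pair across the lines. That difference between the lines was not tested.

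The transcripts printed above carried this difference. Psmd4-202 was at 88.6, 1.95, 2.00 and 68.4 TPM, or 82.8%, 3.34%, 3.56% and 64.7% of the gene. Psmd4-203 was at 17.6, 40.1, 47.9 and 28.7 TPM, or 16.4%, 68.7%, 85.5% and 27.2%. The form with the longer last stretch thus led in the GFP line's negative library and in the fusion line's positive library, and Psmd4-203 led in the other 2.

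Leading transcripts differed between libraries in 9 of the 37 genes that had several transcripts and 5 TPM or more in at least 1 library. These were Psma4, Psmc3, Psmd1, Psmd4, Psmd8, Psmd13, Psme1, Psme2 and Psme4. The same share over all genes was not computed, so the count shows no trait of proteasome genes. The widest change of share was in Psme4 and the next in Psmd1 and Psme2. TPM of transcripts that overlap are estimates by the assembler, and their error is not given in the sources used here.

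For Psmd1, the full coding transcript Psmd1-201 was listed at 0, 107, 86.8 and 98.3 TPM. In the GFP line's negative library, 81.1% of the gene was instead Psmd1-203, a retained-intron transcript of 690 bases, at 11.4 TPM. That transcript did not pass 0.462 TPM in the other 3 libraries. Psme4 behaved alike: its coding transcript Psme4-201 was at 0, 59.7, 56.9 and 69.6 TPM, and the 6.71 TPM of the first library came from Psme4-203 and Psme4-202, of 695 and 576 bases. Psmd13 was led by the retained-intron transcript Psmd13-202 there (43.5% of the gene) and by Psmd13-211, a target of nonsense-mediated decay, in the positive library of the same line (57.7 TPM, 41.9%). Both libraries of the fusion line were led by the coding transcript Psmd13-201, at 82.4% and 89.9%.

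Psmc3 and Psma4 had different leading coding transcripts in the negative and positive library of the fusion line. Psmc3-202 was at 12.8, 8.44, 6.66 and 86.4 TPM and Psmc3-203, which lacks 126 of its coding bases, at 62.5, 68.4, 64.1 and 0 TPM. The shorter model Psmc3-210 led in the first 3 libraries, at 149, 181 and 165 TPM, and stood at 63.9 TPM in the last. Psma4-207, which lacks 153 coding bases of Psma4-201, was listed at 0 in both libraries of the GFP line and at 21.2 and 59.8 TPM in the fusion line. Psma4-201 was at 64.5, 101, 41.5 and 46.2 TPM, so both transcripts were higher in the fusion line's positive library than in its negative one. Psmd8 had a different leading transcript in each library, and 2 of its transcripts, Psmd8-201 and Psmd8-203, have the same coding sequence.

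**Figure D4:**
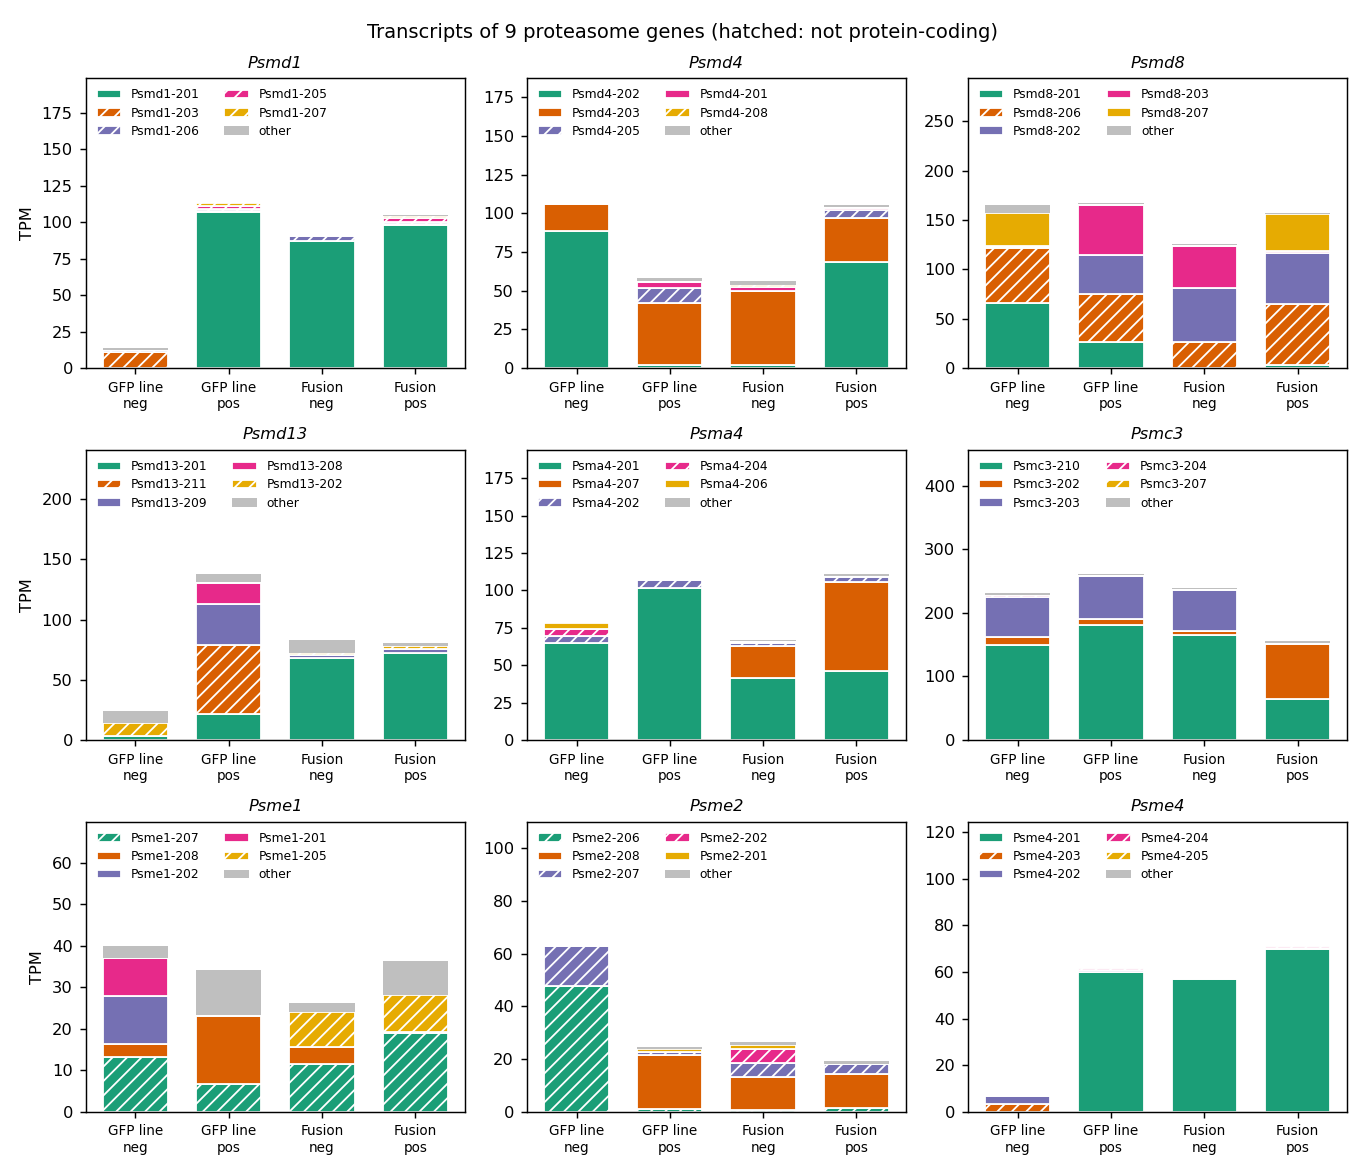
TPM of the transcripts of 9 proteasome genes whose leading transcript differed between libraries, stacked for each of the 4 libraries (neg, GFP-negative; pos, GFP-positive); hatching marks transcripts that are not protein-coding, and grey sums all transcripts below the 5 highest. Psmd4-202 is high in the first and last bars and near 2 TPM in the middle ones, and Psmd1, Psme2 and Psme4 have no full coding transcript in the first bar.

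Of the TPM in annotated transcripts of the 48 genes, protein-coding transcripts held 91.4%, 94.2%, 95.5% and 95.03%. Retained-intron transcripts held 6.21% in the GFP line's negative library and 2.96%, 2.95% and 3.38% in the others. The same share over all listed genes was 5.90% in that library and 3.49% to 3.64% in the others, so it was higher in that library for all genes as well. The summed coding transcripts of 9 members were listed at 0 there: Psma8, Psmb9, Psmb10, Psmc2, Psmd1, Psmd10, Psme2, Psmg1 and Psmg3. In the others, 1, 3 and 2 members had such a 0. Psmb9 had it in both positive libraries, Psmb10 in both of the fusion line and Psmc2 in the fusion line's negative one. The share of all genes with such a 0 was not computed. Counted on coding transcripts only, an alternative chosen after seeing the data, 11 of 45 members were 2-fold or more apart in the GFP line, against 51.4% of all genes. Of 44 in the fusion line, 2 were, Psmc2 (higher in positive cells) and Psme1 (lower), against 10.7%.

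The activators that bind the core in place of the regulatory particle gave mixed values. Psme3, the nuclear PA28 gamma ring, was the highest of this class, at 84.9, 82.1, 83.9 and 90.6 TPM. Psme1 and Psme2 form the cytoplasmic PA28 ring, which interferon induces. Psme1 was at 39.9, 34.3, 26.1 and 36.3 TPM. Its coding transcripts summed to 25.2, 20.6, 5.45 and 1.34 TPM, so in the fusion line they were lower in positive cells while the gene sum was higher. The retained-intron transcript Psme1-207 led in every library but the GFP line's positive one.

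Psme2 was the 1 member that was 2-fold or more lower in the GFP line's positive cells. It was at 62.8 and 24.7 TPM there and at 26.5 and 19.3 TPM in the fusion line, with log2 ratios of -1.31 and -0.44. The negative library of each line was the higher one. In the GFP line this direction rested on retained introns: Psme2-206 alone was at 47.5 TPM in the GFP-negative library, while the coding transcript Psme2-208 was at 0, 20.6, 12.7 and 13.0 TPM. On coding transcripts only, the log2 ratio in the GFP line was 4.50, in the opposite direction. Psme2b, a copy of Psme2 with 99.4% identity over 794 aligned bases, was at 5.13, 5.24, 4.41 and 3.94 TPM, and the authors' estimation could split reads between the pair.

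Psme4, the PA200 activator known for histone degradation in germ cells, was at 6.71, 61.7, 57.9 and 71.0 TPM. Its log2 ratio was 3.02 (GFP line) and 0.29 (fusion line), with 1 low library and 3 alike. Psmf1, the inhibitor PI31, was at 17.8, 13.1, 12.0 and 13.7 TPM and stayed under 2-fold.

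Of the chaperones that build the core rings, 1 of each pair was low in the GFP line's negative library. Psmg1 and Psmg2 act as one dimer, and Psmg3 and Psmg4 as another. Psmg1 had a 0 in the GFP line's negative library, against 75.9, 81.9 and 89.0 TPM elsewhere. Its partner Psmg2 was at 16.4, 21.3, 19.0 and 23.6 TPM.

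Psmg3 was at 1.05 TPM in that same library, against 17.2, 18.9 and 16.6 TPM. Psmg4 was at 35.9, 26.5, 45.5 and 42.9 TPM. Psmg2 and Psmg4 were thus less than 2-fold apart in every comparison. In the fusion line all 4 genes had log2 ratios between -0.17 and 0.30.

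Psmc3ip, the gene that bears the name without being a subunit, was at 4.47, 21.3, 11.8 and 16.0 TPM, with log2 ratios of 2.03 and 0.42. It shares 385 exon bases with Mlx on the opposite strand, and Mlx was at 2.99, 20.5, 17.1 and 20.1 TPM. The same library was the lowest for both, and without strand they cannot be told apart.

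Near-identical copies limit some of these levels. With BLAST, 30 pseudogene pairings matched members' transcripts at 90% identity or more over at least 300 bases and at least 50% of the copy, and 22 of them had values. The highest was Gm3375, with 98.9% identity to Psmb5 over its whole length, at 128, 106, 101 and 109.8 TPM. Together with a second, nearly silent copy it held 40.1% to 45.7% of the TPM of Psmb5 and copies. Gm13835 was identical to Psma3 over 685 bases and was at 24.0, 31.7, 27.9 and 33.6 TPM, so that 40.9% to 48.3% of that group lay in copies of Psma3. Gm4950, a copy of Psmb3, was at 35.2, 23.2, 19.5 and 21.1 TPM.

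Adding copies to their parents changed no 2-fold call within a line. The log2 ratio of Psma3 was 0.47 alone and 0.41 with copies in the GFP line, and 0.09 and 0.25 in the fusion line. For Psmb5 it was -0.05 and -0.15 in the GFP line. Gm14048, a copy of Psmd11, was at 12.6 TPM in the GFP line's negative library and listed at 0 in the other 3. No copy of Psmc2 met these limits. Mir686, a microRNA hairpin that shares 109 exon bases with Psmb5, was listed at 138, 0.0211, 0.0212 and 1.11 TPM, high in the same library.

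Other genes of the pathway were taken from a list of 29 partners, of which 28 had values. At 5 TPM, 6 of 27 were 2-fold or more higher in the GFP line's positive cells, among them Uba6, Ube3c and Usp14, and 1 was lower, against 33.2% and 7.48% of all genes. The fusion line had 2 of 27 higher (Uba6 and Usp14) and Ubb lower, against 8.23% and 3.14% of all genes. The medians were 0.08 and 0.44 on the log2 scale.

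The partners with the largest mean ratios were Uba6 and Ube3c. Uba6, a ubiquitin-activating enzyme, had a 0 in each negative library, against 8.69 and 9.28 TPM in positive cells. Ube3c, a ubiquitin ligase that acts at the proteasome, was at 0.539, 27.1, 21.7 and 27.0 TPM, low in 1 library only. Usp14, the deubiquitinase bound to the base and chosen here after its values were seen, was at 19.4, 41.6, 22.0 and 46.5 TPM. It was thus the second partner past 2-fold in both lines, with log2 ratios of 1.07 and 1.04.

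Over both lines, limma estimated the effect of GFP status beside a term for line. At an adjusted p (Benjamini-Hochberg) under 0.05 it called 0 of 14379 genes, which is 0 percent, and 0 of the 45 members tested. At an unadjusted p under 0.05, limma had 972 genes and 2 members. Each gene leaves 1 residual degree of freedom, so its own error is how far the lines disagree. limma then draws that error toward a level shared with other genes of similar expression. The standard errors given here hold both parts, and p-values cover only the spread among these 4 libraries. Psmc2 was higher by 6.43 on the log2 scale (standard error 0.62) and had the smallest adjusted p of the members in limma, 0.46, and it was higher in 2 of 2 lines. Psma4 was the other, at 0.59 (standard error 0.17) with a limma adjusted p of 0.62. Without the fusion line's negative library, limma with GFP status alone called 9 of 45 members, or 20%, against 29.2% of all genes (4204 of 14379). Its negative arm was then the GFP line's negative library alone. Without any other library it called 0 members and 0 genes.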

How the data were processed

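Poly-A RNA was sequenced from 4 sorted populations, 1 library each. The authors deposited TPM per transcript. Per the submitters' processing notes, CASAVA, HISAT2 2.1.0 and StringTie 1.3.5 were used with GRCm38 (mm10), with options, strand and annotation release not given in the sources used here. The listed transcripts summed to 66.6% to 69.1% of the full TPM scale.

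TPM were summed per gene symbol, and log2 ratios of the deposited TPM were taken with a pseudocount of 1 TPM. limma 3.58.1 (in R 4.3.3; lmFit, then two-sided eBayes, trend and robust set) was run on log2(TPM + 1) of genes reaching 1 TPM in 2 or more libraries, with Benjamini-Hochberg adjustment over all genes, and was tested on simulated data. GENCODE M21 matched 203 of the 208 member transcripts and gave positions and types. Copies were found with blastn 2.17.0. Other tools were pandas 2.3.3, numpy 2.4.6 and matplotlib 3.10.9.

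Full values are given for members 2-fold or more apart in either line, the 2 highest of each class, the immune, thymus and testis subunits, activators, the inhibitor and core chaperones, and members with differing leading transcripts. The members and lists were chosen with earlier results of these data known. Alternatives covered the pseudocount, scaling, filters, the transcript used and leaving out each library. Some genes of the partner and antigen presentation lists are counted but not reported here by name.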

Additional observations from a re-analysis of the deposited data

Results flagged for a closer look

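Psmd4 differed between the lines: positive over negative cells gave a log2 ratio of -0.86 (GFP line) and 0.90 (fusion line), a difference of 1.77. Each line gave 1 ratio, from 1 library per population. The difference was not tested.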

How the results depend on the processing

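The count of members 2-fold or more apart in the GFP line was 9. It was 6 of 42 among genes above 0 in both libraries (26.3% of all genes). With the highest transcript of each gene it was 11 of 45 (50.2%), as with coding transcripts only (51.4%). The other alternatives run gave counts between these. Psma8 left and Psme2b entered with quantile normalization, and Psmd4 and Psmd14 entered in both counts of 11. In the fusion line the count of 1 became 4 of 43 with the highest transcript of each gene (15.4% of all genes) and 2 with coding transcripts only (10.7%). Between GFP-positive libraries the count of 0 became 1 without the filter on low values (8.70% of all genes), 5 of 44 with the highest transcript (14.1%) and 2 with coding transcripts only (9.84%). Between GFP-negative libraries the count of 8 became 5 of 41 among genes above 0 in both (24.9% of all genes). The fusion line's median log2 ratio of 0.18 became 0.0292 with median-ratio scaling and 0.0637 with quantile normalization. The median over all genes shifted with median-ratio scaling in the fusion line from 0.14 to -0.01 and between negative libraries from 0.04 to 0.20, and with quantile normalization in the GFP line from 0.19 to -0.13, below the members' 0.10. limma called 0 members at an adjusted p under 0.05, and 1 (Psmc2) with quantile normalization. Leaving out each library in turn, limma called 0 to 9 members, the 9 without the fusion line's negative library, where it called 4204 of 14379 genes (29.2%). Psme2 reversed in the GFP line, from -1.31 to 4.50, on coding transcripts only. Over all genes limma called 178 with quantile normalization, 27 with coding transcripts only and 3 with a pseudocount of 5 TPM, against 0 as reported. The term for line in limma pairs the libraries of each line, so the reported fit is itself the paired analysis. The cause of these changes was not tested. The depth is unknown, so how far it limits low genes cannot be given.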
